A study of Schizosaccharomyces pombe with 29 samples.

Results

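Replacement of serine 2 by alanine in the carboxy-terminal domain (CTD) of RNA polymerase II was compared with an unchanged CTD in growing fission yeast, Schizosaccharomyces pombe, across all genes measured. The comparison rests on 6 of the 29 sample records of the series, 3 of the strain named S2A and 3 of the control strain WT29, and on 6016 genes tested of 6986 gene identifiers in the count table. The S2A strain carries the alanine change in a CTD of 29 heptads, and WT29 carries 29 heptads of unchanged sequence. Both are of mating type h+, both have the rpb1 allele marked with NatMX, and both were grown to log phase in rich YES medium at 30 °C. Each allele is represented by 1 lab strain. The labels count 3 samples per group and do not say whether they came from separate cultures, so each p-value measures the spread between these samples, which may be technical. The WT29 libraries that the labels name as the control are called control set 1. A second set of 3 WT29 libraries, which the labels name as the control of other alleles, is called control set 2 and was used as an alternative reference. The alleles Y1F (tyrosine 1 to phenylalanine) and S2A-S7A (serines 2 and 7 to alanine), also of 29 heptads, h+ and NatMX-marked, were used only for direct contrasts.

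The CTD is the repetitive tail of Rpb1, the largest subunit of the polymerase, and it carries the 7-residue repeat YSPTSPS. Serine 2 is phosphorylated as the polymerase elongates, and the mark is read by factors that act in elongation, 3′ processing and termination. In fission yeast the mark is placed largely by the kinases Lsk1 and Cdk9, and it is known for its part in the switch from growth to mating, which runs through the transcription factor Ste11.

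Polyadenylated RNA was sequenced with a stranded kit, and library totals ran from 19265833 to 29835359 counts over the 15 libraries of the 5 groups. On the leading principal component, which held 77.6% of the variance, the S2A and control set 1 libraries separated. The control sets themselves differed: 304 genes (5.03% of 6043 tested) were called higher and 233 (3.86%) lower in set 2 than in set 1. List counts below are therefore given against both sets. A gene was called at an adjusted p under 0.05 in edgeR's quasi-likelihood test with a change of at least 2-fold; a gene is said to have risen or fallen at that adjusted p whatever its fold. A level is given in CPM, the counts scaled to a common effective library size, and serves to compare libraries, not genes.

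Against control set 1, 435 genes (7.23% of those tested) were called higher in S2A and 339 (5.63%) lower. The calls were uneven among classes of RNA. Of 4956 coding genes tested, 138 were called higher and 180 lower, whereas of 617 antisense RNAs, transcripts annotated on the strand opposite a gene, 249 were called higher and 55 lower. Of 313 intergenic RNAs, 26 were called higher and 80 lower. In all, 431 of the 435 and 337 of the 339 had 3 S2A libraries on 1 side of the 3 controls. The same libraries made the calls, so this count follows largely from them and is no separate evidence. Against control set 2, 430 genes (7.11% of 6050 tested) were called higher and 449 (7.42%) lower. Of the genes called against set 1, 292 of the 435 and 180 of the 339 were called in the same direction, against set 2, while 32 and 35 had the opposite sign. The authors' deposited table of this comparison, cut at the same thresholds, held 472 genes higher and 380 lower, including 434 and 338 of the genes called here.

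**Figure D1:**
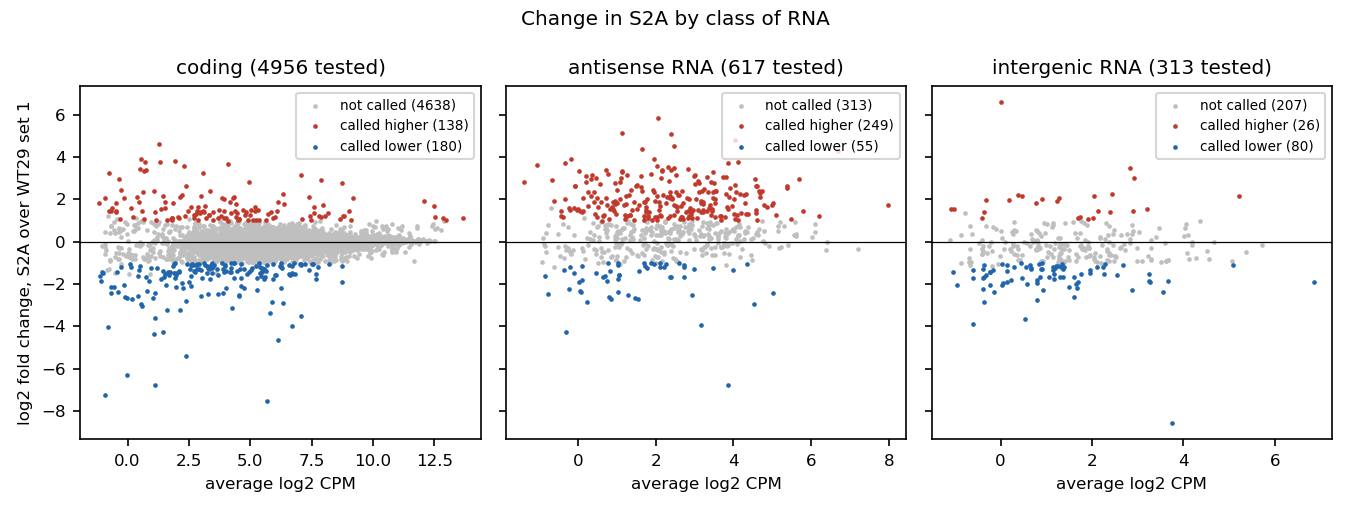
Log2 fold change of S2A over WT29 set 1 (vertical axis) against average log2 CPM (horizontal axis), 1 point per gene tested, for coding genes, antisense RNAs and intergenic RNAs. Red points are called higher and blue points lower; antisense points lie mostly above 0 (249 higher, 55 lower) and intergenic points mostly below (26 higher, 80 lower).

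The mutated gene itself was measured at a lower level in S2A. Counts of rpb1 stood at 140, 155 and 162 CPM in the control libraries and at 61, 49.9 and 49.9 CPM in the S2A libraries. The groups did not overlap, and the log2 difference was -1.51 (SE 0.11, adjusted p = 6.8e-06). It was -3.08 against control set 2, where rpb1 stood at 447 ± 43.5 CPM (SD, n = 3), and S2A lay below all 12 other libraries. Among 12 polymerase II subunit genes, rpb1 was the 1 that fell and 1 other rose (4 rose and 3 fell against set 2); without S2A replicate 3, 3 rose, and without S2A replicate 1 or control replicate 1 or 3, 2 rose. Reads cannot tell fewer transcripts per cell from fewer cells that express a gene, here or in any result below.

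Genes of the factors that place or read CTD phosphorylation moved in both directions. Of 13 CTD kinase and cyclin genes, 2 rose and 5 fell, beside 18.2% of all genes rising and 17.5% falling, with a list median log2 difference of -0.17. Against set 2, 1 rose and 3 fell. With 1 library left out, 1 rose without S2A replicate 1 or any 1 control library, and 3 fell without S2A replicate 2 or control replicate 2 or 3. Lsk1, the kinase of serine 2, had the transcript lsk1 at 77.2, 69.8 and 63.9 CPM in controls and at 132, 118 and 117 CPM in S2A. All 3 S2A values lay above the controls, and lsk1 rose by a log2 difference of 0.80 (SE 0.10, adjusted p = 0.00015; 0.44 against control set 2). The gene of the other serine 2 kinase, cdk9, gave -0.17 (adjusted p = 0.47), and csk1, the gene of a kinase that activates cyclin-dependent kinases, fell by 0.74 on the log2 scale against set 1 and gave -0.02 (adjusted p = 0.92) against set 2.

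Capping, elongation and 3′-end factors were counted in the same way. The gene pcm1, which encodes the cap methyltransferase that binds P-TEFb, stood at 12.7, 13 and 15.2 CPM in controls and at 5.99, 4.49 and 4.32 CPM in S2A, all below the controls. Its log2 difference was -1.47 (SE 0.20, adjusted p = 0.00029; -1.51 against control set 2), while the other 2 capping genes did not pass the test. Of 23 elongation factor and histone methyltransferase genes, 4 fell and 0 rose (2 to 6 fell and 0 or 1 rose with any 1 library left out; 1 fell and 7 rose against control set 2). The lowest counts of fallen members, 2, came without S2A replicate 1, without S2A replicate 2 and without control replicate 3, and the highest, 6, without S2A replicate 3. Among them tpr1, a Paf1 complex subunit gene, fell from 87.2, 94.4 and 115 CPM to 28.8, 36.4 and 33.2 CPM with no overlap, a log2 difference of -1.59 (SE 0.13, adjusted p = 1.5e-05; -1.28 against set 2). Of 23 termination and 3′-processing genes, 4 rose and 4 fell (5 and 5 against set 2). The fallen count was 1 without control replicate 2 or 3 and 2 without S2A replicate 2. The list includes seb1, whose product binds RNA and acts in 3′-end processing, at a log2 difference of 0.44 (adjusted p = 0.0059), and cft2, a cleavage factor gene, at -0.78 (adjusted p = 0.0031). The subunits of the nuclear cap-binding complex moved in opposite directions, with cbc1 at -0.90 and cbc2 at 0.82 (adjusted p = 2.4e-05 and 0.00017; -0.94 and 0.68 against set 2).

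Most regulators of entry into mating and meiosis that changed fell. Of 27 such genes tested, 13 fell and 3 rose, with a median log2 difference of -0.30 beside -0.01 over all genes tested. Ste11, the transcription factor that switches on mating genes, had its transcript at 240, 233 and 271 CPM in controls and at 17.2, 14.8 and 33.2 CPM in S2A. The S2A libraries were all lower, by 11.4-fold (log2 -3.51, SE 0.25, adjusted p = 7.3e-06). The transcript of mei2, which encodes the RNA-binding protein that starts meiosis, stood at 155, 131 and 118 CPM in controls and at 5.67, 5.89 and 4.54 CPM in S2A, 25.1-fold lower (log2 -4.65, SE 0.15, adjusted p = 6.8e-08). The groups did not overlap for either gene, S2A replicate 3 was the highest S2A library for ste11, and S2A lay below all 12 other libraries for mei2 but not for ste11.

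The pheromone signalling chain behaved alike from its G protein to its kinases, with an exception at the kinase at its head. The G-protein alpha subunit gene gpa1 fell from 114, 124 and 138 CPM to 30.9, 24 and 28.8 CPM (log2 -2.17, SE 0.12, adjusted p = 1.7e-06). The MAP kinase gene spk1 fell from 97.8, 97.4 and 113 CPM to 14.8, 12.7 and 15.1 CPM (log2 -2.86, SE 0.12, adjusted p = 2e-07). The MAP kinase kinase gene byr1 (log2 -1.59) and the adaptor gene ste4 (-2.46) also fell, as did map1 (-3.23), which encodes a MADS-box transcription factor. By contrast byr2, the MAP kinase kinase kinase gene, rose by 0.86, and msa1, which encodes an RNA-binding protein that holds back mating, rose by 1.46 (adjusted p = 1.9e-05).

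The size of these falls depended on the control. Against control set 2, the log2 differences were -2.06 for mei2, -0.95 for ste11, -1.62 for gpa1, -0.95 for spk1, -0.93 for byr1 and -1.26 for map1, all past the threshold, and -0.68 for ste4, which was not (adjusted p = 0.064). The rises of byr2 (0.17, adjusted p = 0.35) and msa1 (0.15, adjusted p = 0.29) did not pass against set 2. Control set 2 itself held ste11 at 41.8 ± 2.61 CPM (SD, n = 3), against 249 ± 19.7 CPM in set 1 on the scale of all 15 libraries. As a list, 16 of 28 members fell and 2 rose against set 2, beside 24.7% of all genes falling and 21% rising.

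The labelled mating type was checked on pheromone genes. The h+ (P cell) genes map2, for P-factor, and map3, for the M-factor receptor, were present in every library of both groups, with map3 at 29.1, 30.2 and 36.4 CPM in controls and at 11.9, 12.7 and 12.5 CPM in S2A. All S2A values were below the controls, and map3 fell by 1.37 on the log2 scale (SE 0.15, adjusted p = 7.8e-05). The M-cell gene mam1, for the exporter of M-factor, stood at 41 ± 1.9 CPM in controls and 40.6 ± 3.6 CPM in S2A (SD, n = 3). Another M-cell gene, mam2, for the P-factor receptor, was also measured in these h+ strains. Its average log2 CPM over both groups was 3.625 and its log2 difference -0.893, and it was not called. The part of mam1 and mam2 in the reading of mating type was not tested, and values of the mat1 genes are not given. The M-factor gene mfm1 did not enter the test and mfm2 stood at 0.812 ± 0.0816 CPM in controls and 0.676 ± 0.28 CPM in S2A (SD, n = 3 each). The M-factor gene mfm3 was at 1.44 ± 0.19 CPM in controls and 2.93 ± 0.467 CPM in S2A, a log2 difference of 1.01 (adjusted p = 0.0092); the 3 mfm genes are near-copies that can share reads. Of 18 tested pheromone and mating-type genes, 5 rose and 4 fell (5 and 7 against set 2). The fallen count was 2 without S2A replicate 2 and 6 without S2A replicate 3. Those that rose include map4, a conjugation adhesin gene (log2 1.10), and sxa2, which encodes a protease that degrades P-factor in M cells (1.13), both higher in each S2A library than in any control set 1 library.

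Transcripts of meiosis that growing cells normally remove went the other way. Of 14 tested, 7 rose and 0 fell, with a median log2 difference of 0.89; against control set 2, 7 of 15 rose and 2 fell, with a median of 0.78. The dynactin subunit gene ssm4 stood at 0.566, 0.548 and 0.839 CPM in controls and at 3.62, 2.99 and 3.75 CPM in S2A. The groups did not overlap, and ssm4 rose by a log2 difference of 2.40 (SE 0.28, adjusted p = 0.0001; 3.15 against set 2). The meiotic gene mcp3 rose from 3.74, 5.72 and 4.95 CPM to 11.9, 10.6 and 15.3 CPM (log2 1.39, SE 0.22, adjusted p = 0.00088). The sporulation gene mde2 was at 0.735 to 2.05 CPM in S2A and 0.305 to 0.352 CPM in controls (log2 2.06). These transcripts are rare, and leaving out control replicate 2 lowered the count of risen members to 4, and 2 fell without S2A replicate 3. The gene of Mmi1, the protein that marks such transcripts for removal, fell by 0.54 on the log2 scale (adjusted p = 0.00071; -0.21, adjusted p = 0.055, against set 2).

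**Figure D2:**
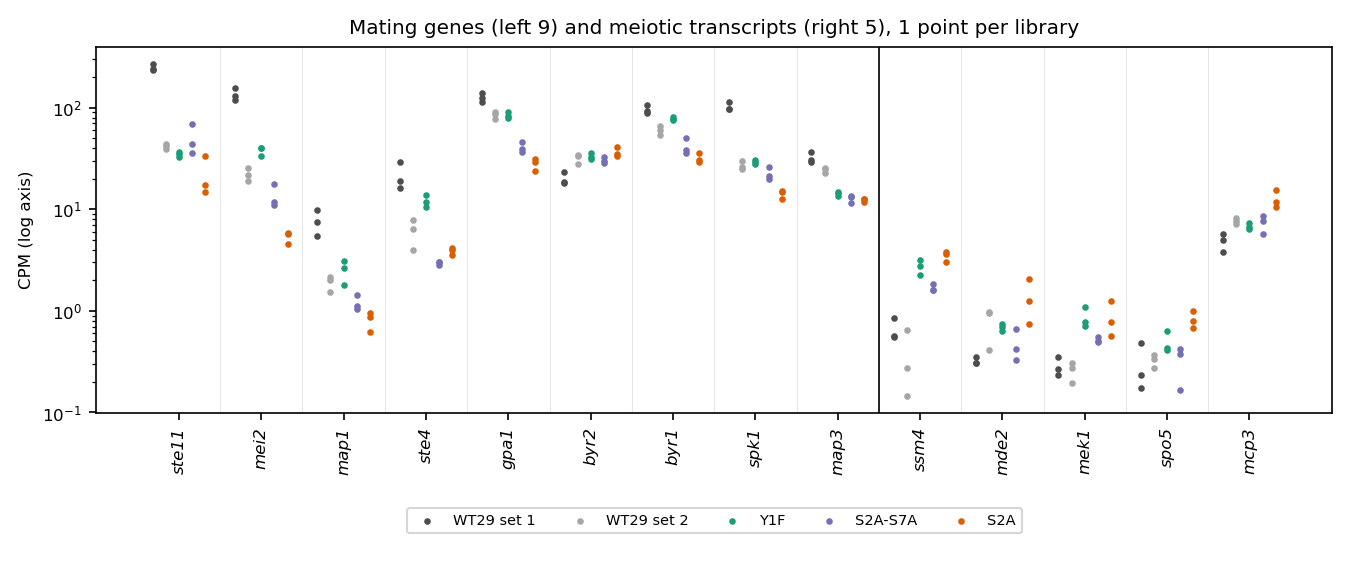
Level in CPM (log axis) of 9 mating genes (left) and 5 meiotic transcripts (right) in each of the 15 libraries of 5 groups, 1 point per library. The S2A points of mei2 lie below those of every other group, and the control set 1 points of ste11, mei2 and spk1 lie above those of control set 2.

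Genes of sugar breakdown rose together. Of 16 glycolytic and fermentation genes, 14 rose and 0 fell, beside 18.2% of all tested genes that rose, and the median log2 difference was 1.00. With any 1 library left out, 14 or 15 rose; against control set 2, 14 rose and 1 fell, with a median of 1.22. The glyceraldehyde-3-phosphate dehydrogenase gene tdh1 stood at 1778, 1854 and 1720 CPM in controls and at 7457, 7614 and 5567 CPM in S2A. Every S2A library was above every other library of the 5 groups, and the difference was 3.86-fold (log2 1.95, SE 0.14, adjusted p = 7.3e-06; 2.24 against set 2).

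Other steps of the pathway followed. The enolase gene eno101 rose from 2701 ± 355 CPM to 8663 ± 1836 CPM (SD, n = 3 each), which is 3.21-fold (adjusted p = 5.7e-05). The genes of aldolase (fba1, log2 1.13), phosphoglycerate kinase (pgk1, 1.15), phosphoglycerate mutase (gpm1, 1.01), pyruvate kinase (pyk1, 0.96) and hexokinase 2 (hxk2, 0.99) rose too. At the branch to ethanol, the pyruvate decarboxylase genes pdc201, pdc202 and pdc101 gave log2 differences of 2.00, 1.78 and 0.85, and the alcohol dehydrogenase gene adh1 gave 1.11. The genes that did not pass were pgi1, for phosphoglucose isomerase (0.20, adjusted p = 0.26), and hxk1, for hexokinase 1 (-0.18, adjusted p = 0.19). tdh1 and gpd3, and the pdc genes, are related copies whose reads may be shared.

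Summed over the 16 genes, the list took 4.85%, 4.8% and 4.28% of all counts in the control libraries and 9.29%, 9.48% and 8.17% in the S2A libraries, with no overlap. The share was 4.09% to 4.35% in control set 2, 6.9% to 7.57% in S2A-S7A and 7.83% to 8.25% in Y1F, the last of which overlaps S2A at S2A replicate 3. In the direct contrasts 5 of the 16 were higher and 2 lower in S2A than in S2A-S7A, and 9 were higher and 2 lower than in Y1F, at an adjusted p under 0.05; over all genes 16.9% were higher and 17.5% lower than in S2A-S7A, and 25.4% and 16.8% than in Y1F. Among 726 coding genes with an average log2 CPM over 8, 15 were called higher and 3 lower; 6 of the 15 are members of this list.

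**Figure D3:**
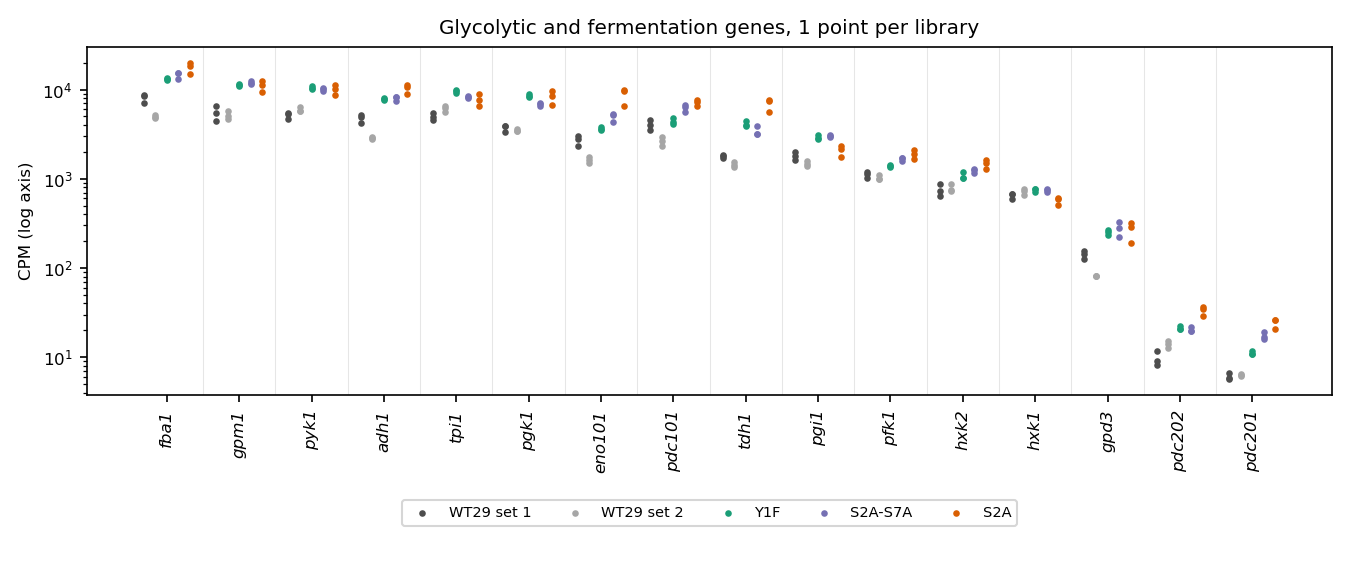
Level in CPM (log axis) of the 16 glycolytic and fermentation genes in each of the 15 libraries, ordered by mean level, 1 point per library. S2A points of tdh1, eno101, adh1, hxk2, pdc201 and pdc202 lie above all 12 others, and those of hxk1 do not rise.

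Hexose uptake genes moved both ways. Of 22 hexose transport and glucose repression genes, 7 rose and 7 fell (7 and 11 against set 2); 4 fell without S2A replicate 2 or control replicate 1. The invertase gene inv1, for sucrose use outside the cell, rose from 5.57, 5.17 and 6.01 CPM to 21.8, 20.4 and 26.9 CPM with no overlap (log2 2.05, SE 0.18, adjusted p = 1.9e-05; 1.62 against set 2). The transporter genes ght3 (-1.41) and ght4 (-1.22) fell. The high-affinity glucose transporter gene ght5 rose by 1.24 against set 1 but lay at -0.91 against set 2 (adjusted p = 0.0039), so its direction depends on the control. The aldehyde dehydrogenase gene atd1 was at 316, 229 and 137 CPM in controls and at 1054, 927 and 861 CPM in S2A, all higher (log2 2.06, SE 0.24, adjusted p = 0.00011; 2.55 against set 2).

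Iron uptake genes rose, with S2A replicate 3 lower than the other S2A libraries for fio1, fip1 and str1. Of 10 tested, 7 rose and 2 fell (5 to 9 rose and 0 to 2 fell with 1 library left out; 6 rose and 1 fell against set 2). The lowest count of risen members came without S2A replicate 2 or control replicate 2 and the highest without S2A replicate 3, and 0 fell without any of these or control replicate 3. The ferroxidase gene fio1 stood at 9.97, 6.3 and 6.63 CPM in controls and at 66, 74.5 and 19.8 CPM in S2A. The groups did not overlap, the log2 difference was 2.81 (SE 0.42, adjusted p = 0.00058; 3.15 against set 2), and S2A replicate 3 lay nearest to the controls. Its neighbour fip1, the iron permease gene with which it is transcribed divergently, showed the same order at 33.5, 27.3 and 22.8 CPM against 164, 185 and 52.3 CPM (log2 2.26, SE 0.37, adjusted p = 0.001). The siderophore transporter gene str1 (log2 1.49), the ferrichrome synthetase gene sib1 (0.89) and the ferric reductase gene frp2 (1.01) rose. Compared with S2A-S7A, 4 of 12 iron genes were lower in S2A and 0 higher. The siderophore transporter gene str3 was lower by 4.13 on the log2 scale (adjusted p = 0.00011) and shu1, a heme uptake gene, by 4.02 (adjusted p = 0.00023). The mean level of str3 was 19.9 CPM in S2A-S7A, 1.15 CPM in S2A, and 0.354 and 0.0542 CPM in control sets 1 and 2. For shu1 these means were 15.8, 0.987, 0.313 and 0.0864 CPM, so S2A lay above both control means for both genes.

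Heat-shock genes gave more rises than falls. Of 22, 8 rose and 1 fell, beside 18.2% of all genes rising and 17.5% falling. Against set 2, 10 rose and 1 fell, beside 21% and 24.7% of all genes. With any 1 library left out, 6 to 9 rose and 1 fell. The small heat-shock protein gene hsp16 stood at 101, 99.1 and 76.3 CPM in controls and at 346, 373 and 154 CPM in S2A, with no overlap and again with S2A replicate 3 the lowest of S2A (log2 1.66, SE 0.27, adjusted p = 0.00094; 2.97 against set 2). The disaggregase gene hsp104 rose by 0.76 and the Hsp70 gene ssa1 by 0.75 (the latter 0.36, adjusted p = 0.06, against set 2), while hsp9 fell by 1.34 (adjusted p = 0.002). Against Y1F the list lay lower in S2A, with 14 of 22 genes lower, including hsp16 at -2.53, and 5 higher. Over all genes 16.8% were lower and 25.4% higher in S2A than in Y1F. Of 22 core stress genes, 4 rose and 8 fell (7 and 9 against set 2); without control replicate 1, 2 rose and 5 fell, and without control replicate 2, 2 rose. Among them gst1, a glutathione S-transferase gene, stood at 1.65, 2.04 and 1.63 CPM in controls and at 0.105, 0.193 and 0.48 CPM in S2A (log2 -2.70, adjusted p = 0.00076), below all 12 other libraries.

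Single nutrient and surface genes changed strongly. The thiamine pathway gene nmt1 stood at 0.609, 1.06 and 0.574 CPM in controls and at 8.51, 9.17 and 9.77 CPM in S2A, 12.1-fold higher with no overlap (adjusted p = 8.1e-06; log2 3.55 against set 2), while of 10 thiamine genes 3 rose and 1 fell (2 and 3 against set 2). The flocculin gene pfl3, which encodes a cell-surface adhesin, rose from 27.8, 28.2 and 26.5 CPM to 246, 284 and 203 CPM. That is 8.87-fold (log2 3.15, SE 0.13, adjusted p = 1.8e-07; 1.82 against set 2), and every S2A library lay above all 12 others. Among 18 flocculin genes and their factors 5 rose and 3 fell (7 and 6 against set 2), with gsf2 at 1.31 and pfl7 at -2.06.

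Phosphate genes moved in both directions. Of 9, 2 rose and 4 fell (1 and 3 against set 2): the glycerophosphodiester transporter gene tgp1 rose by 1.44 (adjusted p = 0.00031; 1.29 against set 2), and vtc4, of the polyphosphate synthase complex, fell by 0.95 (-1.05 against set 2). The phosphate transporter gene pho84 fell by 0.59 against set 1 but gave 0.08 against set 2 (adjusted p = 0.59), and the acid phosphatase gene pho1 gave -0.18 (adjusted p = 0.39). Nitrogen starvation and amino acid uptake genes also moved both ways. Of 26 tested, 6 rose and 8 fell (5 and 10 against set 2), with a median log2 difference of -0.09. With any 1 library left out, 3 to 6 rose and 8 or 9 fell. The oligopeptide transporter genes isp4 (1.79) and opt3 (2.61) and the arginase gene car1 (1.52) rose against set 1. The amino acid permease gene isp5 fell by 2.19 against set 1 and gave 0.10 against set 2 (adjusted p = 0.69).

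Large lists of growth genes had medians near 0 against control set 1, and several gave other counts against set 2. Of 131 cytosolic ribosomal protein genes 1 rose and 2 fell, with a median log2 difference of 0.03 (35 rose and 3 fell against set 2, median 0.15); 6 rose without S2A replicate 3, 2 rose without control replicate 1, and 1 fell without control replicate 1 or 2. Of 27 ribosome biogenesis genes 2 rose and 1 fell (10 and 1 against set 2, median 0.19); 1 rose without control replicate 2, 0 fell without S2A replicate 1 and 3 fell without S2A replicate 3. Of 12 histone genes 0 rose and 2 fell (2 and 2 against set 2). The histone falls numbered 0 or 1 with any 1 library left out, and 2 rose without S2A replicate 3.

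RNA-processing and silencing lists gave other counts against the other control set. Of 84 splicing factor genes 7 rose and 10 fell, with a median of -0.11, whereas 19 rose and 6 fell against set 2, with a median of 0.22. The fallen count was 4 without control replicate 2 or 3, 5 without S2A replicate 1 or 2, and 14 without S2A replicate 3, and the risen count was 4 without S2A replicate 1 or control replicate 2. Of 33 nuclear RNA elimination genes 2 rose and 7 fell, against 7 and 5 with set 2. Their fallen count was 2 without S2A replicate 2, 3 without control replicate 2, and 4 without S2A replicate 1 or control replicate 3. Of 23 heterochromatin and RNAi genes 6 rose and 1 fell, against 3 and 3 with set 2. Their risen count was 2 without S2A replicate 2 or control replicate 2 and 3 without S2A replicate 3 or control replicate 1, while 0 fell without S2A replicate 2 or control replicate 1 or 2 and 2 fell without S2A replicate 3.

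Among the coding genes with the largest rises were several of other roles. SPAPB18E9.04c, annotated as uncharacterized, rose from 58.7, 56.8 and 48.8 CPM to 451, 394 and 410 CPM (log2 2.93, SE 0.10, adjusted p = 6.8e-08; 3.51 against set 2), and did not overlap. SPBC24C6.09c, a predicted phosphoketolase gene, rose by 2.42, meu14, for a sporulation protein, by 2.20 and atf31, for a transcription factor, by 2.14, each with all S2A libraries above the 12 others. The subtelomeric helicase gene tlh2 gave 3.25, but near-identical copies of it can share reads. SPBPB2B2.06c (3.67) and SPAC1039.02 (2.76), both annotated as phosphoprotein phosphatase genes, are related copies; against set 2 they gave -0.19 (adjusted p = 0.7) and 0.58.

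Among the largest falls of coding genes, several depended on the control. SPCC737.04 (-3.99), cmt2 (-3.39), for a methyltransferase, SPBC19C7.04c (-2.91) and SPCPB1C11.02 (-2.58), for a predicted amino acid permease, fell against set 1, with 2.19, 3.14, 0.52 and 0.11 against set 2. SPCC330.03c, annotated as a cytochrome b5 reductase gene, fell by 3.13 and gave -0.55 (adjusted p = 0.14) against set 2. SPCC576.19c, annotated as uncharacterized, fell against both (-2.79 and -3.06). SPBPB2B2.18, annotated as uncharacterized, fell by 5.43 against set 1 and was not tested against set 2. Its level was 9.8 ± 6.13 CPM in set 1, 0.286 ± 0.216 CPM in set 2 and 0.214 ± 0.172 CPM in S2A (SD, n = 3). The S2A and set 2 libraries overlapped, so its low level in S2A was shared by the other control.

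Antisense RNAs were mostly higher in S2A. Their median log2 difference was 0.66, and 40.4% were called higher and 8.91% lower, beside 7.23% and 5.63% of all genes. They took 0.392%, 0.439% and 0.478% of the counts in the control libraries and 0.685%, 0.596% and 0.789% in the S2A libraries. These shares did not overlap, with means of 0.436 ± 0.0429% and 0.69 ± 0.0967% (SD, n = 3); the two-sided exact permutation test gave p = 0.1, the smallest that 3 against 3 allows. Against set 2, at 0.607 ± 0.033%, the ranges overlapped at S2A replicate 2 (p = 0.2, exact permutation test). By gene, 203 of 654 antisense RNAs (31%) were called higher and 122 (18.7%) lower against set 2, with a median of 0.27. Over all genes these shares were 7.11% and 7.42%, so antisense RNAs exceeded both. Set 2 itself had 144 of 634 called higher than set 1. Directly against Y1F, 198 of 628 (31.5%) were called higher in S2A and 25 (3.98%) lower, beside 6% and 3.72% of all genes. Against S2A-S7A 58 of 623 (9.31%) were higher and 11 (1.77%) lower, beside 2.56% and 1.6% of all genes. The strand setting of the authors' counting is not given in the sources used here, so an antisense count may hold reads of the gene opposite. Ribosomal RNA, which poly(A) selection is meant to remove, also gave more higher counts in S2A: 10 of 21 rRNA genes tested were called higher and 1 lower against set 1, and 20 of 21 higher against Y1F; its part in the antisense result was not tested.

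**Figure D4:**
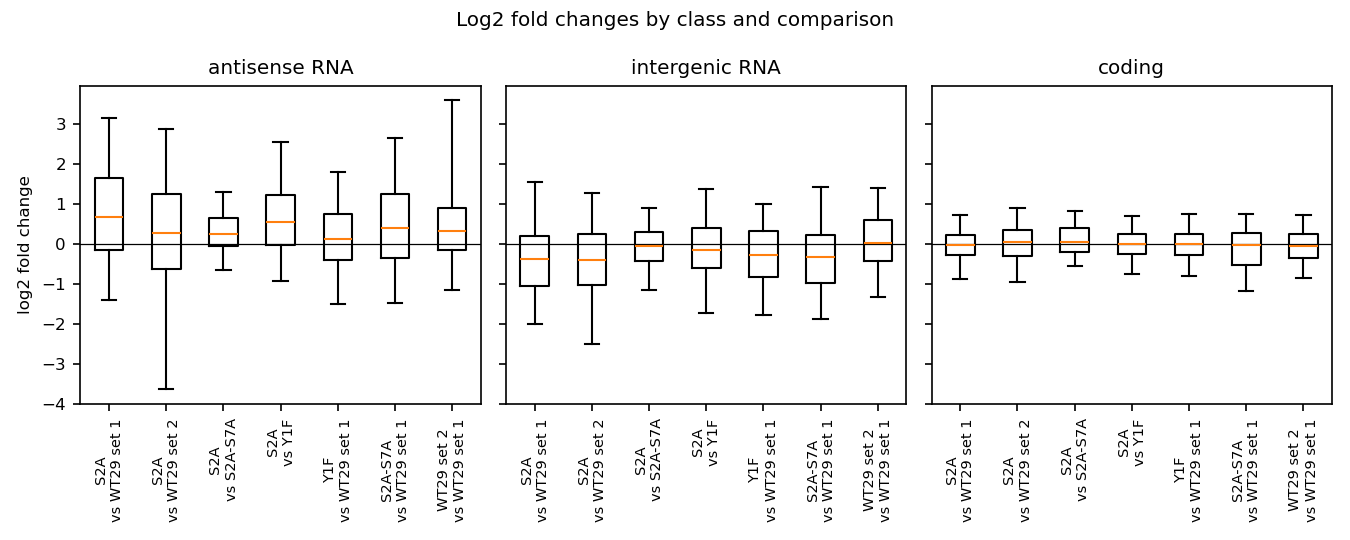
Log2 fold changes of antisense RNAs, intergenic RNAs and coding genes in 7 comparisons. Boxes span the quartiles with the median as a line, and whiskers reach the 5th and 95th percentiles. The antisense median of S2A is 0.66 against control set 1 and 0.27 against set 2, while coding medians lie close to 0. All comparisons with set 1 share its libraries.

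The largest antisense rises were also measured against their sense genes. The RNA SPAC56F8.12-antisense-1 stood at 10.1, 10.5 and 9.76 CPM in controls and at 222, 211 and 153 CPM in S2A. It rose 19.3-fold (log2 4.27, SE 0.15, adjusted p = 6.8e-08), above all 12 other libraries, by 2.87 against set 2 and by 2.22 and 3.50 against S2A-S7A and Y1F. The RNA opposite prp1, a splicing factor gene, rose from 2.35 ± 0.436 CPM to 32.3 ± 4.97 CPM (SD, n = 3; log2 3.78, adjusted p = 1.7e-06), while prp1 fell by 0.60 (adjusted p = 0.047; -0.31 against set 2).

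The RNA opposite pck1, for a protein kinase C, stood at 0.131, 0.196 and 0.0884 CPM in controls and at 10.3, 7.91 and 6.72 CPM in S2A (log2 5.83), and pck1 gave -0.09 (adjusted p = 0.45). Those opposite taf73 and cbh1 gave 5.08 and 4.83, with 0.08 and -0.02 for taf73 and cbh1, of which the first encodes a general transcription factor subunit and the second a CENP-B homologue. Opposite the ribosomal protein gene rps1501 the antisense RNA gave 4.53 and rps1501 gave -0.10. Of the genes opposite an antisense RNA called higher, 224 could be tested: 21 rose and 38 fell, with a median of -0.10, and 4 were called higher and 11 lower. Over all genes 18.2% rose, 17.5% fell and 5.63% were called lower, and of coding genes 2.78% were called higher and 3.63% lower. Opposite risen antisense RNAs the share of genes that fell was thus near that of all genes. The share that rose was below it. The 11 include bst1 (log2 -1.74, antisense 2.92), cyp1 (-1.11, antisense 2.17) and chs2 (-1.29, antisense 1.09). Opposite uncalled antisense RNAs, 47 of 269 sense genes rose and 47 fell, with a median of -0.04, and 18 were called higher and 13 lower. Opposite antisense RNAs called lower, 6 of 47 sense genes rose and 12 fell, with a median of -0.06. Of these 47, 2 were called higher and 11 lower. Whether shared reads account for such joint falls was not tested.

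Antisense RNAs were also counted by the arrangement of neighbouring genes. Of 221 antisense RNAs whose sense gene faces its downstream coding neighbour, end to end, 110 (49.8%) were called higher and 17 lower, with a median of 0.98. Of 331 whose sense gene has that neighbour on its own strand, 115 (34.7%) were called higher and 32 lower, with a median of 0.51. Against set 2 the counts called higher were 93 and 92 and those called lower 31 and 49, with medians of 0.69 and 0.24. The arrangements were not tested against each other.

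Intergenic RNAs were lower. Of 313, 80 (25.6%) were called lower beside 5.63% of all genes, with a median log2 difference of -0.39, and against set 2 83 of 318 were called lower, with a median of -0.41. Their share of counts was 0.177 ± 0.0206% in controls and 0.126 ± 0.0199% in S2A (SD, n = 3; two-sided exact permutation p = 0.1). In S2A-S7A it was 0.123 ± 0.00666% and in Y1F 0.129 ± 0.00555%. The RNA omt3 had 1887 counts over the 3 control set 1 libraries and 4 over the 3 S2A libraries, with 160, 138 and 165 in control set 2, Y1F and S2A-S7A. It lies beside mei2 and SPNCRNA.993 (log2 -3.63) and next to omt2 (-1.30, for a predicted dehydratase), and the run of 4 adjoining tested genes was called lower. SPNCRNA.1318, next to the transporter gene ght4, also fell against both controls, at -3.93 (-1.21 against set 2). Some antisense RNAs, which are not in the intergenic counts, were called lower against set 1 as well. Among them meu18-antisense-1 gave -2.53 (-3.51 against set 2), and its sense gene meu18 rose by 1.28 (1.38). cbp6-antisense-1 gave -2.96 against set 1 and 2.04 against set 2. SPCC1884.01-antisense-1 stood at 0.21, 10.4 and 19.9 CPM in S2A, and its call (log2 -2.41, adjusted p = 0.028) was lost without S2A replicate 2 (adjusted p = 0.09) or control replicates 1 and 3 (0.058 and 0.052).

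Genes called in 1 direction against control set 1 lay next to each other in 13 runs of at least 3 tested genes, 6 of them higher and 7 lower. Runs were not counted again against set 2. The longest has 8 genes of chromosome I, from gdt1, annotated as a GDT1-like protein gene, to SPAC750.06c, all called lower. In it SPAC750.01, an aldo/keto reductase gene, stood at 75.1, 85.7 and 141 CPM in controls and at 0.525, 0.579 and 0.524 CPM in S2A, 184-fold lower (log2 -7.52, SE 0.31, adjusted p = 2e-07; -4.36 against set 2). Its level was 11.1 ± 3.2 CPM in control set 2, 19.2 ± 15 CPM in S2A-S7A and 1.01 ± 0.32 CPM in Y1F (SD, n = 3). gdt1 was at 64.1, 70 and 58.5 CPM in controls and at 5.51, 2.41 and 30.9 CPM in S2A; its call (log2 -2.30, adjusted p = 0.02) was lost without S2A replicate 1 or control replicate 1 (adjusted p = 0.057 and 0.053). The neighbour prl61, an antisense RNA, fell by 6.78 against set 1. Its mean level was 28.6 CPM in control set 1, 0.435 CPM in control set 2, 0.0942 CPM in Y1F and 0.246 CPM in S2A. Against set 2, prl61, SPAC186.08c, pdc102 and SPAC750.06c were not tested, and gdt1, SPAC186.06 and ftm4 gave -3.73, -4.87 and -6.64. SPAC186.08c, pdc102, ftm4 and SPAC750.06c had 62, 120, 287 and 60 counts over the 3 control libraries and 3, 1, 2 and 0 over the S2A libraries.

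**Figure D5:**
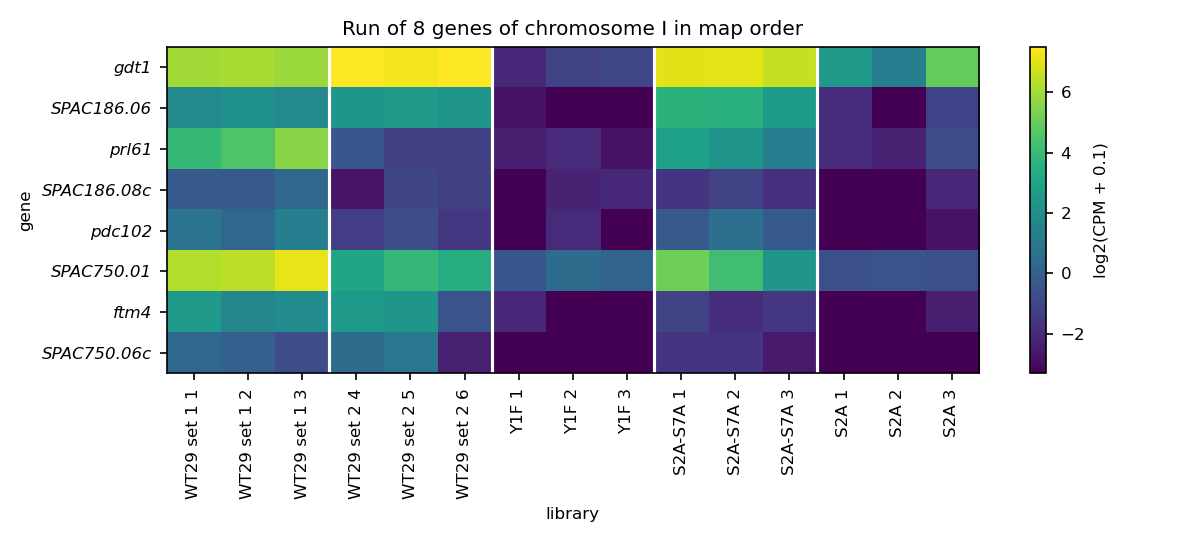
Level as log2(CPM + 0.1) of the 8 adjoining genes of the run on chromosome I (rows, in map order) in 15 libraries (columns, by group). Levels are low in all S2A and Y1F libraries, with gdt1 higher in S2A replicate 3, and differ between the control sets for prl61 and SPAC750.01.

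Other runs of lower genes held the MIP-family channel gene SPAC977.17 (-1.67), the dihydroxyacetone kinase gene dak2 (-1.49) and ght3 on chromosome I, the transcription factor gene grt1 (-3.23) on chromosome II, and the alanine racemase gene alr2 (-4.26) with its antisense RNA. Against set 2 these 5 genes gave -1.65, -0.77, -0.63, -3.20 and -2.91, so dak2 and ght3 fell short of 2-fold. Runs of higher genes held mug62 (3.81), rdh54 (1.27), a DNA translocase gene, and atf31 on chromosome I, and pfl3 with frp2 and SPNCRNA.322 (2.17) on chromosome II. Against set 2 mug62, rdh54 and atf31 gave 2.36, 0.80 and 1.88, and pfl3, frp2 and SPNCRNA.322 gave 1.82, 1.07 and 3.01. A run of 3 genes with mug115 (-1.70), SPAC56F8.13 (-1.18) and SPAC56F8.15 (-2.49) lay close to the risen SPAC56F8.12-antisense-1; the call of SPAC56F8.13 was lost when S2A replicate 1 or 2 or control replicate 1 or 3 was left out (adjusted p = 0.09 to 0.14).

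S2A was then compared directly with the other alleles, in fits that did not pair the samples by replicate number. Against S2A-S7A, 155 genes (2.56% of 6048 tested) were called higher in S2A and 97 (1.6%) lower; with upper-quartile scaling, which moved the median of all genes to 0.14, they were 220 and 81. The higher count ranged from 79, without S2A replicate 3, to 284, without S2A replicate 1, with 99 and 266 without S2A-S7A replicates 1 and 2. Genes lower in S2A were SPAC186.06 (-5.77, of the chromosome I run), SPAC750.01 (-5.12), str3, shu1 and SPBPB2B2.18 (-3.43). Higher were vps71 (1.65), for a chromatin remodelling subunit, SPBC2A9.14 (1.56), frg1 (1.51), for an mRNA-processing protein of the FRG1 family, sxa2 (1.46) and SPAC11D3.11c (1.46). The mean level of vps71 was 2.16 CPM in S2A-S7A, 6.82 CPM in S2A, and 5.78 and 5.62 CPM in control sets 1 and 2. For SPAC11D3.11c these means were 4.77, 13.1, 25.1 and 29.4 CPM. The S2A means of SPBC2A9.14, frg1 and sxa2 lay above both control means. rpb1 lay 1.65 lower on the log2 scale in S2A than in S2A-S7A (adjusted p = 6.3e-06).

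Against Y1F, 364 genes (6% of 6068 tested) were called higher in S2A and 226 (3.72%) lower. The stress genes ddr48 (-3.70), zym1 (-3.26, a metallothionein gene) and hsp9 (-3.13) were lower, with SPCC663.08c (-3.18), a predicted dehydrogenase gene, and mug108 (-3.15). Each of these genes had a higher mean level in Y1F than in either control set. For ddr48 the means were 42.8 CPM in Y1F, 3.24 CPM in S2A, and 2.11 and 1.92 CPM in control sets 1 and 2. The genes gdt1 (5.50), tlh2 (5.06), SPBPB10D8.01 (3.14), for a predicted cysteine transporter, pfl9 (2.76), a flocculin gene, and SPAC977.18 (2.72), annotated as uncharacterized, were higher. The mean level of gdt1 was 0.286 CPM in Y1F and 13 CPM in S2A, below the 64.5 and 173 CPM of control sets 1 and 2. The call of SPAC977.18 was lost without S2A replicate 3 (1.14, adjusted p = 0.17) or Y1F replicates 1 and 2 (adjusted p = 0.061 and 0.064). Of 131 cytosolic ribosomal protein genes, 96 were higher in S2A than in Y1F and 0 lower at an adjusted p under 0.05, with a median log2 difference of 0.39. All these contrasts share the S2A libraries with the main comparison.

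Calls in the same direction against both control sets and in both direct contrasts were made for 46 genes higher and 14 lower in S2A. The higher genes include mug62, pfl3 (3.15 against set 1, 1.29 against S2A-S7A and 2.41 against Y1F), cuf2, for a meiotic copper-sensing factor, and arp10 (4.63, 2.44 and 3.04), for an actin-like protein. The lower genes include mei2, omt3, alr2, gst1 and isp3 (-2.45, -1.35 and -1.31), a spore coat gene. Beyond all 12 other libraries lay 170 of the 435 genes called higher and 73 of the 339 called lower. Over all 6016 genes tested, S2A lay above the 12 for 300 and below them for 228. The called genes were selected with the same S2A libraries, so their larger share is no separate evidence.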

How the data were processed

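The authors deposited whole read counts per gene; reads were aligned with HISAT2 2.1.0 to ASM294v2, handled with SAMtools and assigned to genes by HTSeq 0.10.0; these tools are as the submitters' processing notes list them. The authors' deposited table for S2A, made with DESeq2, gives log2 fold changes, adjusted p-values and group means of the signal (counts divided by size factors); only its counts of calls are quoted. Gene names, classes and gene order came from a RefSeq annotation of ASM294v3, which matched 6833 of 6986 identifiers, and no coordinates are given since the builds differ. One identifier listed again was summed. The columns of 16 other libraries were not used. Columns numbered 4 to 6 of the control were assigned to control set 2 by elimination, since no title holds those numbers.

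Counts were tested with edgeR 4.0.16 (R 4.3.3; TMM scaling, filterByExpr, quasi-likelihood F test, Benjamini-Hochberg adjustment over all genes tested), on the 6 libraries of the comparison or, for direct contrasts, on both alleles and control set 1. The levels quoted for 5 groups use TMM scaling over 15 libraries. Intervals and floors are not given; with 19265833 to 29835359 counts per library, counting error is largest for genes under 1 CPM. The test was checked on simulated counts, with the same spread for all genes and changes placed only in well-counted genes. That check does not cover genes of low counts or an S2A library that departs from the others.

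Named genes are the 12 coding and 6 long non-coding RNAs with the largest called change each way at an average log2 CPM of at least 2 with no overlap of groups, 5 coding genes each way per direct contrast, members of runs of at least 3 called neighbours, rpb1, and list members. The members and lists were chosen with earlier results of these data known; list members, and others in the last paragraph of the report, were singled out with values in view. The alternatives tried were RLE and upper-quartile scaling, DESeq2 1.42.0, no filter, each library left out, replicate number as a block, control set 2, both control sets, 4 groups in 1 fit and other fold limits; list and class counts under them were added after seeing the data. Replicate numbers were checked for pairing by correlating deviations from group means. Every pair was above 0.1 only for S2A with S2A-S7A (0.662, 0.163 and 0.316), for which the numbers were taken to pair the samples from the data alone. The S2A-S7A results given above come from the fit that ignores this pairing. With replicate number as a block, the 10 genes named for that contrast kept direction and threshold, and the counts of calls are given in the last paragraph.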

Additional observations from a re-analysis of the deposited data

How the results depend on the processing

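Genes called against control set 1 numbered 1096 higher and 1054 lower with no minimum fold and 170 and 88 at 4-fold or more. Leaving out each library in turn gave 406 to 448 higher and 290 to 418 lower; for antisense RNAs 232 to 257 and 40 to 64, and for intergenic RNAs 24 to 31 and 65 to 95. Against control set 2 antisense RNAs called lower rose from 55 to 122. Leave-one-out counts were 79 to 284 higher and 79 to 114 lower against S2A-S7A, and 318 to 366 and 216 to 276 against Y1F.

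Against control set 2 in place of set 1, the direction reversed for 12 named genes: SPCC737.04 (2.19), cmt2 (3.14), SPBC19C7.04c (0.52), SPCPB1C11.02 (0.11), SPBPB2B2.06c (-0.19), cbp6-antisense-1 (2.04), SPNCRNA.768 (0.38), SPNCRNA.780 (-0.56), SPBPB21E7.09 (-0.38), pho84 (0.08), ght5 (-0.91) and isp5 (0.10); a further 16 lost the threshold and 106 kept direction and threshold. With both control sets together ght5 reversed (-0.18) and 24 lost the threshold. The cause was not tested. Under DESeq2 8 named genes lost the threshold, and under RLE scaling 0 did. With replicate number as a block, which the labels do not explain, calls numbered 440 and 357 against set 1, 170 and 108 against S2A-S7A and 364 and 241 against Y1F; correlations of same-numbered deviations were 0.498, -0.386 and 0.614 for set 1 and 0.18, 0.0311 and -0.197 for Y1F, so only the S2A-S7A samples were taken as paired. Genes under about 1 CPM, such as many antisense and meiotic RNAs, are limited by counting error.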
